A study of Mus musculus with 33 samples.

Results

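Messenger RNA of 31 genes that make, carry, store and export cholesterol was followed through mouse mammary cells, organoids and tumors. The genes were chosen by symbol, and all 31 were found among the 30170 gene symbols of 4 expression tables. They form 7 genes of the mevalonate pathway, 11 genes of the steps from squalene to cholesterol, 5 genes of SREBP control, 4 genes of sterol transport and storage, and 4 genes of the LXR receptors and efflux pumps.

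Cells build cholesterol from acetyl-CoA through mevalonate, the isoprenoid diphosphates and squalene. When sterol in the endoplasmic reticulum is low, SCAP carries the SREBP transcription factors to the Golgi for cleavage, and the released factors switch on nearly every enzyme gene of the route. INSIG proteins hold the complex back when sterol is plentiful, while oxysterols activate the LXR nuclear receptors, which switch on the efflux pumps Abca1 and Abcg1 as well as Srebf1. The mammary gland uses the same route to supply cholesterol for membranes and for the milk fat globule.

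The study asked what TRPS1, a repressor of the GATA zinc finger family, does in mammary epithelium, partly together with loss of E-cadherin (Cdh1), and it yielded 33 RNA sequencing libraries of mouse material. HC11 cells, an epithelial line from the mouse mammary gland, were grown with 300 nM trichostatin A (TSA), a histone deacetylase inhibitor, for 24 h (3 libraries) or with the solvent DMSO (3 libraries), and in another experiment they carried 1 guide RNA against Trps1 (sgTrps1, 2 libraries) or 1 scrambled guide (sgScr, 2 libraries). Primary mammary organoids of the genotypes Cdh1F/F;Trps1F/F, Cdh1+/F;Trps1F/F and Cdh1F/F;Trps1+/+ were all given AdCre, an adenovirus that carries Cre recombinase, and were collected at day 14 or day 28, with 2 libraries for each of the 6 groups. They are called double-floxed, Cdh1-heterozygous and Trps1+/+ organoids below, in that order, and Cdh1-heterozygous organoids are floxed at both Trps1 alleles. The 11 tumors came from WAP-cre;Cdh1F/F;Trps1F/F mice (8 tumors of 6 mice) and WAP-cre;Cdh1F/F;Trps1+/+ mice (3 tumors of 3 mice). WAP-cre is driven by a milk protein promoter of the mammary epithelium, so the other cells of a tumor keep the floxed alleles. The submitters sorted the Trps1F/F tumors into subgroup_one (4 tumors of 3 mice), subgroup_two (2 tumors of 2 mice) and subgroup_three (2 tumors of 2 mice). No source used here says on what grounds, and 1 mouse gave 2 tumors to subgroup_one and 1 to subgroup_three. No Trps1+/+ organoids with intact Cdh1 and no organoids without AdCre were analysed here.

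Libraries held between 14833245 and 38708003 gene reads, and the 31 genes together took 0.281% to 0.362% of the reads in organoids, 0.160% to 0.244% in tumors, 0.179% to 0.281% in the TSA experiment and 0.113% to 0.114% in the guide experiment. Values below are normalised read counts, and a log2 fold change is a difference on the deposited log2(normalised count + 1) scale, in which low counts are damped. A gene was called higher or lower at a limma p, adjusted over all genes of the comparison, under 0.05. Where groups are said not to overlap, this describes the printed values and adds no test to the p-value. The share of all genes without overlap was not counted. Of the organoid libraries, 8 of 12 share a column heading with their replicate, so their values are given in no set order. No label says that replicates of the cells or organoids came from separate cultures, so their p-values measure the spread between these libraries, which may be technical.

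Trps1 itself was read first as a check of the labels. At day 28 it stood at 2401 and 2123 in double-floxed organoids and 699.9 and 1049.8 in Cdh1-heterozygous organoids, against 15949 and 12554 in Trps1+/+ organoids, and the order was the same at day 14. TSA-treated cells held 2009, 1905 and 1929, against 16654, 15988 and 15668 in DMSO cells. In the libraries labelled sgTrps1 the Trps1 message was not lower, with 14786 and 15418 there, against 14212 and 15186 in sgScr libraries, so the RNA level does not check that label. In tumors labelled Trps1F/F it ranged from 954 to 6353, overlapping the 2821, 7878 and 6369 of Trps1+/+ tumors. Cdh1 at day 28 stood at 14402 and 15724 in double-floxed, 12204 and 10614 in Trps1+/+ and 8413 and 9123 in Cdh1-heterozygous organoids. At day 14, in the same order, it stood at 12373 and 12253, 8695 and 8629, and 11729 and 11558. Double-floxed organoids were thus not lower than Cdh1-heterozygous organoids, so the RNA level does not check the Cdh1 label there.

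The promoters of 4 members are shown. Idi1 and Cyp51 had the largest rises among the enzyme genes in day 28 double-floxed organoids, and the efflux pump gene Abca1 was low there. Hmgcs1, which rose there too, was picked because its window was the 1 member window with a match to the sterol regulatory element. Sequences are RefSeq windows around the gene start in build GRCm38.p6, 5′ to 3′ on the gene's strand, from chr13:8885356-8885655 (plus strand), chr5:4104648-4104947 (minus strand), chr13:119690101-119690400 (plus strand) and chr4:53159846-53160145 (minus strand). Capitals mark CCAAT, read as ATTGG on the other strand, and the sterol regulatory element searched as TCACNCCAC. No capitals of these windows overlap.
Idi1: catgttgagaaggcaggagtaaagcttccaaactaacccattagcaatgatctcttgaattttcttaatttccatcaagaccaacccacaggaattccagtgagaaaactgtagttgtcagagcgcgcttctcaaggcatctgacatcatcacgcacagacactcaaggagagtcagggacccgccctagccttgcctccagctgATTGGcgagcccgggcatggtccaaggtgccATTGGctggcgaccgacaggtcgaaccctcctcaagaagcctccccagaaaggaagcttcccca
Cyp51: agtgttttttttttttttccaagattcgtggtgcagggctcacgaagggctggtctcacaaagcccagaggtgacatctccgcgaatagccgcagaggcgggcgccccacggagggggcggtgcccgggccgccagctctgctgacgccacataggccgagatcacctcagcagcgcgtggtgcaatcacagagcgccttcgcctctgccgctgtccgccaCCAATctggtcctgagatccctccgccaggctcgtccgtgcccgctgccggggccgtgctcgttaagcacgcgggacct
Hmgcs1: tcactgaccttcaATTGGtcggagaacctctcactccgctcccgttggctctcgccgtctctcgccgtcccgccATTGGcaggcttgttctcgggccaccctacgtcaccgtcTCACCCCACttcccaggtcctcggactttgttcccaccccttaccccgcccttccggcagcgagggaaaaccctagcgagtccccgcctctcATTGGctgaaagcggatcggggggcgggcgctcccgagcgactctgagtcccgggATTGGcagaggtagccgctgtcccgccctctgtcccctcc
Abca1: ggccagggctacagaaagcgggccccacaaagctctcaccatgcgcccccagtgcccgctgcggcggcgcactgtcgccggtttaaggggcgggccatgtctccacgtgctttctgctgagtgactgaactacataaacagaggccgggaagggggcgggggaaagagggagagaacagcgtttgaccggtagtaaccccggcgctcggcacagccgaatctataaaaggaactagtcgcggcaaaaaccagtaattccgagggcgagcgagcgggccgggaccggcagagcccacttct
The Hmgcs1 window holds 1 match to the sterol regulatory element, at -137 from the gene start, and 4 to CCAAT, while the Idi1 window holds 2 CCAAT and the Cyp51 window 1. Windows were found for 25 of the 31 members. CCAAT, the box bound by NF-Y, was present in 20 of these 25 genes, against 41.1% of all genes with a window, and GGGCGG, the box bound by Sp1, in 22 of 25, against 38.2%. Both were counted on either strand. The sterol regulatory element as spelled matched 1 of 25, against 1.44%. These are letter matches only.

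In day 28 organoids, all 18 enzyme genes of the synthesis route rose in double-floxed organoids relative to Trps1+/+ organoids, and the pumps that export cholesterol fell. Of the 31 genes 24 rose and 3 fell, where 19.9% of the 15861 genes tested rose and 23.4% fell. The median log2 fold change of the 18 enzymes was 1.12, against -0.04 over all genes tested. All 31 genes passed the low-value filter here.

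Of the mevalonate pathway, 7 of 7 genes rose. Idi1, which isomerises the first isoprenoid unit, had 2738 and 3412 in double-floxed organoids at day 28, against 1001 and 792 in Trps1+/+ organoids, a log2 fold change of 1.78 ± 0.13 (SE, limma adjusted p = 5.31e-07). Acat2, which joins acetyl-CoA units at the head of the route, had 963 and 816 in double-floxed organoids, against 313 and 329 in Trps1+/+ organoids (log2 fold change 1.46 ± 0.13 SE, limma adjusted p = 2.81e-06). For both genes every double-floxed library lay above every Trps1+/+ library. Fdps, which makes farnesyl diphosphate, rose by 1.29. Other annotated genes share 26.7% of the exon bases of Fdps, 12.1% of Hmgcs1 and 9.22% of Idi1, so the counting could have left out or mixed some of their reads. Hmgcs1, the synthase just before the step that statins block, had 4569 and 4828 in double-floxed organoids and 2132 and 1811 in Trps1+/+ organoids (log2 fold change 1.26 ± 0.09 SE, limma adjusted p = 3.93e-07). Mvd rose by 0.98 and Pmvk by 0.82. The smallest rise in this group was 0.52, for the mevalonate kinase gene Mvk.

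From squalene to cholesterol, 11 of 11 genes rose. Cyp51, which removes a methyl group from lanosterol, had 3773 and 4080.4 in double-floxed organoids, against 1347 and 1243 in Trps1+/+ organoids (log2 fold change 1.60 ± 0.08 SE, limma adjusted p = 2.28e-08). Hsd17b7 (1.46 ± 0.10) and Nsdhl (1.42 ± 0.08), which act together on the next methyl groups, followed. Squalene synthase Fdft1, with 18.3% of its exon bases shared with another gene, rose by 1.30, squalene epoxidase Sqle by 0.93 and lanosterol synthase Lss by 1.04. The enzyme genes Msmo1, Ebp, Sc5d and Tm7sf2 rose by 1.19, 0.82, 0.80 and 0.61. Dhcr7, the last reductase of the route, rose least, by 0.37, and its call, with those of Mvk and the sterol reductase gene Tm7sf2, was lost in at least 1 alternative.

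The regulators did not move as a block. Srebf2, the SREBP gene tied most closely to cholesterol synthesis, rose by 0.46, the retention genes Insig1 and Insig2 rose by 0.40 and 0.44, and the escort gene Scap, at -0.21, did not pass. Srebf1, the SREBP gene tied to fatty acids and an LXR target, fell: it had 9525 and 9128 in double-floxed organoids, against 21212 and 22156 in Trps1+/+ organoids (log2 fold change -1.22 ± 0.09 SE, limma adjusted p = 7.20e-07). Its libraries did not overlap between the groups.

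Among the transport genes, Stard4, a cytosolic sterol carrier and SREBP target, rose with the enzymes, with 1482 and 1476 in double-floxed organoids, against 595 and 488 in Trps1+/+ organoids (log2 fold change 1.45 ± 0.11 SE, limma adjusted p = 7.52e-07). Npc1 (0.49) and Npc2 (0.32), which let cholesterol out of the lysosome, rose less. Soat1, which esterifies cholesterol for storage, had 347 and 462 in double-floxed organoids, against 374 and 469.9 in Trps1+/+ organoids, and these ranges overlapped (log2 fold change -0.07 ± 0.13 SE, limma adjusted p = 0.717).

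The efflux pumps moved the other way. Abca1, which loads cholesterol onto apolipoproteins, had 2151 and 2234 in double-floxed organoids, against 8116 and 8566 in Trps1+/+ organoids (log2 fold change -1.93 ± 0.08 SE, limma adjusted p = 6.91e-09). Abcg1, which passes cholesterol to larger lipoproteins, had 674 and 783 in double-floxed organoids, against 2667 and 3354 in Trps1+/+ organoids (log2 fold change -2.04 ± 0.11 SE, limma adjusted p = 4.79e-08). Neither pump's libraries overlapped between the groups. The LXR genes Nr1h2 (-0.21) and Nr1h3 (-0.46) did not pass.

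The organoids hold several cell types, and in such bulk libraries fewer cells of a type and less RNA per cell cannot be told apart. At day 28 the summed count of 10 epithelial markers was 166641 to 198330 in double-floxed organoids, against 120711 to 129115 in Trps1+/+ organoids, with none of the markers at 0. The 10 fibroblast markers summed to 9490.0 to 10267 in double-floxed organoids, against 26600.4 to 40497 in Trps1+/+ organoids, and the 9 macrophage markers measured to 332 to 489 in double-floxed organoids, against 927 to 993 in Trps1+/+ organoids. Macrophages and fibroblasts are known to express Abca1 and Abcg1. Adipocyte markers (8) summed to 317 to 369.6 in double-floxed organoids, against 839 to 1383 in Trps1+/+ organoids, with Retn at 0 in both. Endothelial markers (8) summed to 142 to 149 in double-floxed organoids, with Tie1 at 0, against 593 to 653 in Trps1+/+ organoids, and skeletal muscle markers (8) to 768 to 1172 in double-floxed organoids, against 4460.0 to 6448 in Trps1+/+ organoids. The part of these differences in the values of the cholesterol genes was not tested.

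**Figure D1:**
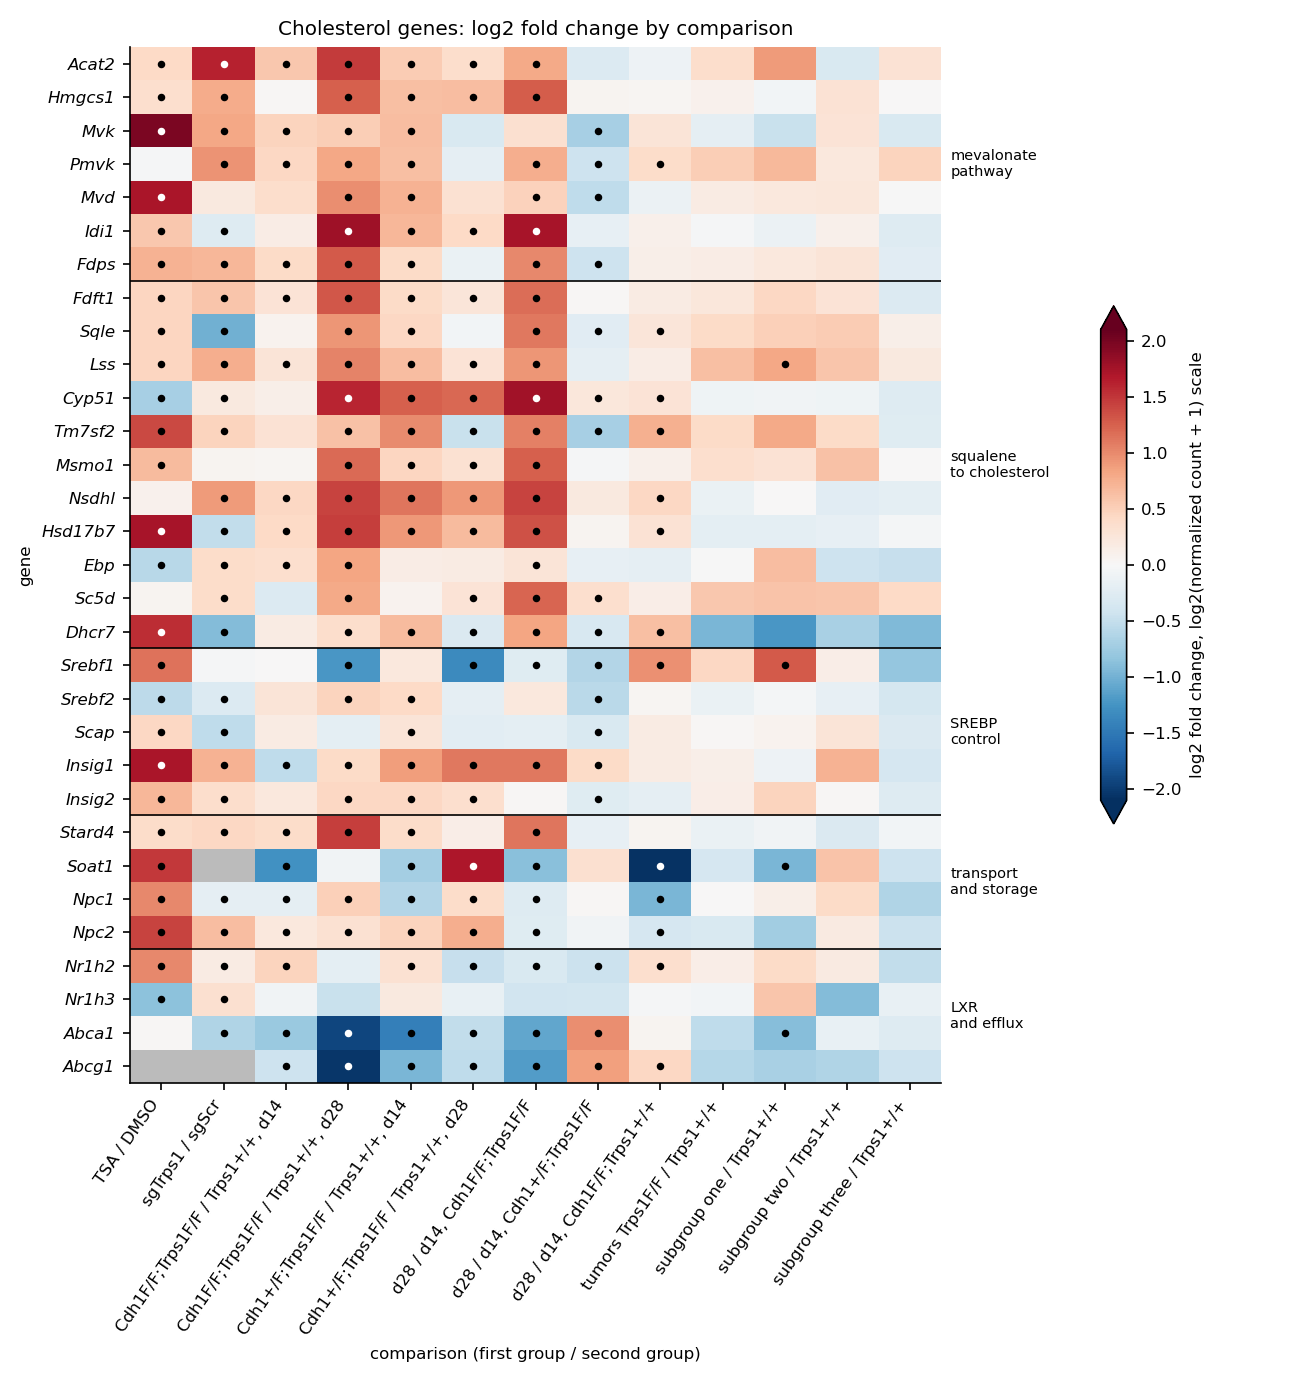
Log2 fold change of the 31 genes (rows, grouped by role) in 13 of the comparisons (columns, first group over second group); red is higher and blue lower in the first group, a black or white dot marks a limma adjusted p under 0.05, and grey marks no fold shown. All 18 enzyme rows are red with a dot for Cdh1F/F;Trps1F/F over Trps1+/+ organoids at day 28, where Abca1 and Abcg1 are blue.

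**Figure D2:**
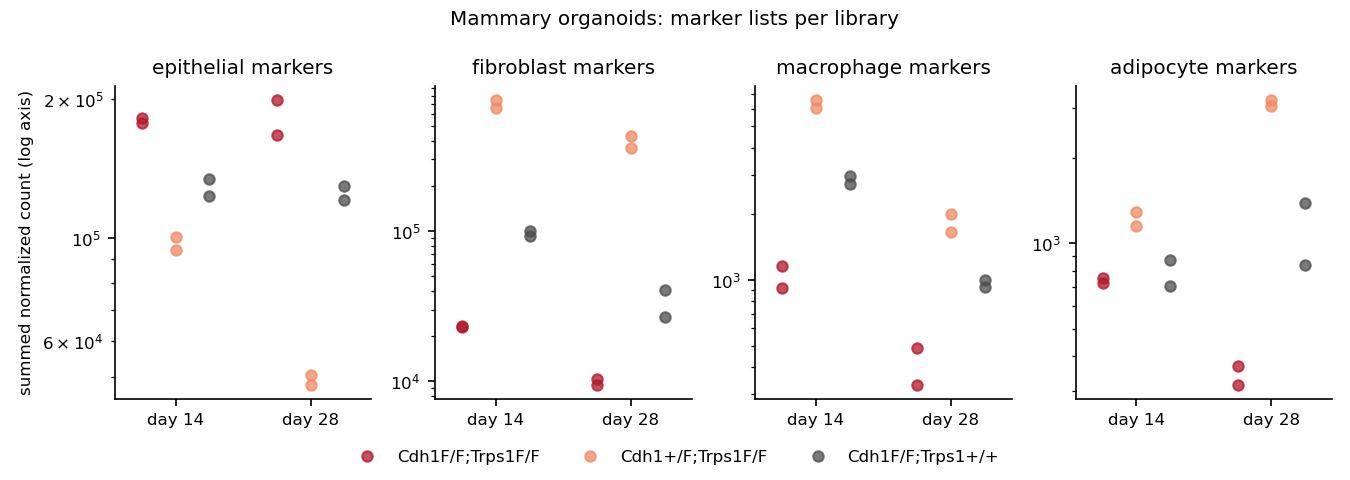
Summed normalised count of 4 marker lists in each organoid library (point), on log axes, by day and genotype. The Cdh1+/F;Trps1F/F organoids hold the highest fibroblast sums at both days, and the Cdh1F/F;Trps1F/F organoids the lowest.

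Other lists of sterol and lipid genes were counted in the same contrast of day 28 double-floxed with Trps1+/+ organoids. Of 10 measured genes of SREBP cleavage and turnover 2 rose and 1 fell, with Erlin2 at 0.41 and the site-1 protease gene Mbtps1 at -0.31. Of 14 genes of the isoprenoid branch, which uses farnesyl diphosphate for other products, 2 rose and 0 fell (Pdss1, which makes the coenzyme Q tail, 0.83). Of 17 genes of fatty acid synthesis 6 rose and 4 fell, with ATP citrate lyase Acly at 0.52, Scd2 at 0.70 and Gpam at -0.84. Of 26 genes of sterol uptake, exchange and oxysterols 6 rose and 8 fell, with the lysosomal lipase gene Lipa at -1.94, the receptor gene Lrp1 at -1.70 and the sterol transfer gene Gramd1b at -1.18.

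At day 14 the same genotypes differed in fewer enzyme genes. In double-floxed relative to Trps1+/+ organoids 12 of 31 genes rose and 5 fell, where 14.5% of all genes rose and 17.9% fell. The enzymes had 9 of 18 higher and 0 lower, with a median of 0.30 (all genes -0.01). Acat2 led, with 502 and 519.8 in double-floxed organoids, against 386 and 311 in Trps1+/+ organoids (log2 fold change 0.56 ± 0.13 SE, limma adjusted p = 0.00614). That call was lost in some alternatives. Idi1 stood at 834 and 1016 in double-floxed organoids, against 867 and 793 in Trps1+/+ organoids, a log2 fold change of 0.15 ± 0.13 that did not pass. Hmgcs1, at 0.02 ± 0.09, did not pass either, and its ranges overlapped.

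The pumps were already lower at day 14, and so was Soat1, which was not called at day 28. Abca1 had 4858 and 4457 in double-floxed organoids, against 8488 and 7558 in Trps1+/+ organoids (log2 fold change -0.78 ± 0.08 SE, limma adjusted p = 1.39e-05), and Abcg1 fell by 0.44. Soat1 had 703 and 772 in double-floxed organoids, against 1819 and 1727 in Trps1+/+ organoids (log2 fold change -1.27 ± 0.13 SE, limma adjusted p = 1.32e-05). Insig1 fell by 0.53, against the direction of the enzymes. Without 1 double-floxed library (replicate 1) 9 members were called in this comparison in place of 17, and without 1 Trps1+/+ library (replicate a) 10, and 7 genes kept their call in every alternative run. The calls lost in some runs were those of Abcg1, Acat2, Fdft1, Fdps, Lss, Mvk, Npc1, Npc2, Pmvk and Stard4. Fibroblast markers summed to 23070.1 to 23473 in double-floxed organoids and 92085 to 99922 in Trps1+/+ organoids at day 14, and macrophage markers to 917 to 1151 in double-floxed and 2743 to 2962 in Trps1+/+ organoids. Their part was not tested.

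In double-floxed organoids nearly all enzyme genes rose between the collection days. Relative to day 14, 17 of 18 enzymes rose at day 28 and 0 fell (all members 19 up and 7 down, all genes 14.8% up and 20.6% down). In Cdh1-heterozygous organoids 2 enzymes rose and 7 fell (members 5 and 12, all genes 20.5% and 20.3%). In Trps1+/+ organoids 7 rose and 0 fell (members 10 and 3, all genes 11.1% and 14.7%). The median enzyme change was 1.08 in double-floxed, -0.18 in Cdh1-heterozygous and 0.16 in Trps1+/+ organoids.

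The difference between the time courses of double-floxed and Trps1+/+ organoids was tested as an interaction. It passed for 17 members in the upward direction and 4 in the downward direction, where 8.22% and 9.72% of all genes did, and 13 of the 18 enzymes were among the upward ones. Idi1 led, with an interaction of 1.63 ± 0.19 (SE, limma adjusted p = 3.43e-04): in double-floxed organoids it had 2738 and 3412 at day 28 and 834 and 1016 at day 14, and in Trps1+/+ organoids 1001 and 792 at day 28 and 867 and 793 at day 14. Cyp51 followed, at 1.48 ± 0.11 (SE, limma adjusted p = 5.61e-05). The interactions of Mvk (0.05), Pmvk (0.38), Mvd (0.61), Tm7sf2 (0.30) and Dhcr7 (0.19) were positive but did not pass.

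Abcg1 (interaction -1.60 ± 0.15 SE, limma adjusted p = 1.45e-04) and Abca1 (interaction -1.14 ± 0.12 SE, limma adjusted p = 1.90e-04) had negative interactions. Abca1 had 2151 and 2234 at day 28 and 4858 and 4457 at day 14 in double-floxed organoids, and 8116 and 8566 at day 28 and 8488 and 7558 at day 14 in Trps1+/+ organoids. Srebf1 had an interaction of -1.22 ± 0.13 (SE, limma adjusted p = 2.48e-04), in which most of the movement lay in the Trps1+/+ organoids. Double-floxed organoids held 9525 and 9128 at day 28 and 11576 and 10798 at day 14 (-0.26 ± 0.09), and Trps1+/+ organoids 21212 and 22156 at day 28 and 10411 and 11973 at day 14 (0.96 ± 0.09). Soat1 moved likewise mostly in Trps1+/+ organoids: double-floxed organoids held 347 and 462 at day 28 and 703 and 772 at day 14 (-0.88 ± 0.13), and Trps1+/+ organoids 374 and 469.9 at day 28 and 1819 and 1727 at day 14 (-2.08 ± 0.13). Fibroblast sums were lower at day 28 than at day 14 in both genotypes. In Cdh1-heterozygous organoids epithelial markers summed to 48182 to 50556 at day 28 and 94193 to 100313 at day 14, fibroblast markers to 358879 to 429120 at day 28 and 656841 to 744380 at day 14, and macrophage markers to 1642 to 1989 at day 28 and 6090.3 to 6579 at day 14. Skeletal muscle markers there summed to 36219 to 46953 at day 28 and 12200.2 to 13875 at day 14, and adipocyte markers to 3057 to 3199 at day 28 and 1152 to 1294 at day 14. The first 3 of these lists were lower at day 28 and the last 2 higher, and their part in the time changes was not tested.

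The neighbouring lists were counted in the same interaction, which passed for 8.22% of all genes upward and 9.72% downward. In the interaction, fatty acid synthesis had 2 of 17 genes up and 1 down, the isoprenoid branch 2 of 14 up and 1 down, SREBP cleavage and turnover 1 of 10 up and 0 down, and sterol uptake, exchange and oxysterols 5 of 26 up and 2 down. Single libraries weighed on the time calls. In Cdh1-heterozygous organoids 17 members were called in full, 8 without replicate a of day 14 and 9 without replicate b of day 28. In Trps1+/+ organoids 13 were called in full and 8 without replicate a of day 14.

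**Figure D3:**
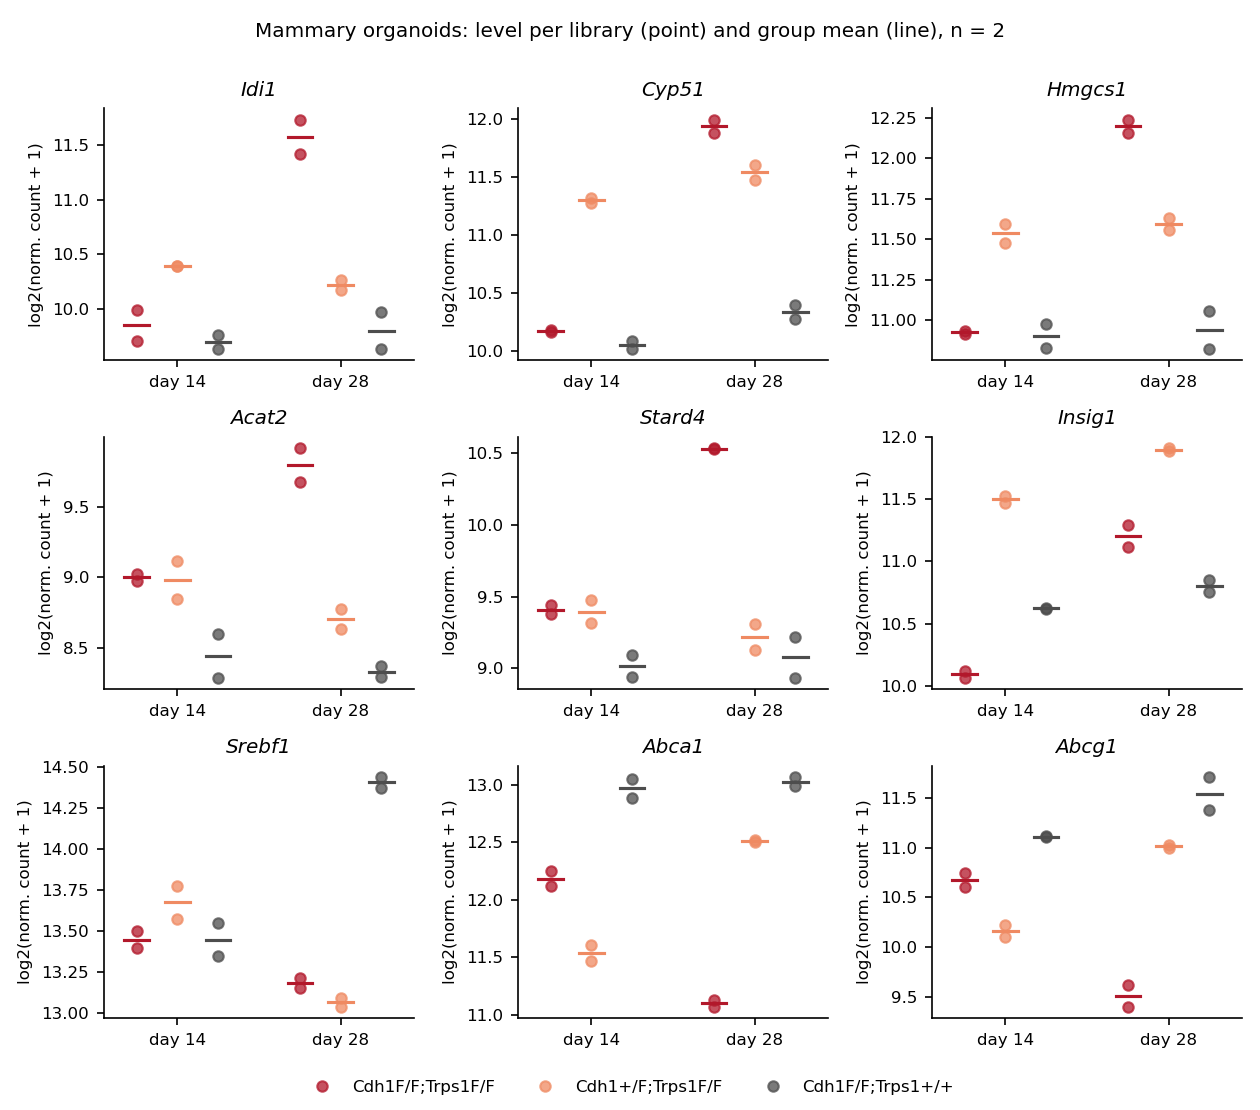
Level of 9 members in each organoid library (points, log2 of normalised count + 1; lines, means of 2 libraries), by day and genotype. At day 28 the Cdh1F/F;Trps1F/F libraries lie above the Cdh1F/F;Trps1+/+ libraries for Idi1, Cyp51, Hmgcs1, Acat2, Stard4 and Insig1 and below them for Srebf1, Abca1 and Abcg1.

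Organoids with 1 intact Cdh1 allele were higher in most enzyme genes already at day 14. In Cdh1-heterozygous relative to Trps1+/+ organoids 23 of 31 genes rose and 4 fell at day 14 (all genes 18.9% and 17.4%), with 16 of 18 enzymes up, 0 down and a median of 0.64, against 0.02 over all genes. At day 28 15 rose and 6 fell (all genes 28.6% and 24.7%), with 10 enzymes up and 2 down, which were Tm7sf2 (-0.46) and Dhcr7 (-0.31), both lost in some alternatives. The higher calls of Acat2, Fdft1, Idi1, Lss, Msmo1 and Sc5d were lost in some alternatives too. Of the 21 members called at day 28, 12 kept their call in every alternative run. Of the genes called at day 28, 53.7% were higher as deposited and 41.8% after quantile normalisation. These groups differ from Trps1+/+ organoids in the Cdh1 genotype as well as in Trps1, so the alleles cannot be told apart.

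Cyp51 rose at both days, with 2562 and 2481 in Cdh1-heterozygous organoids at day 14, against 1085 and 1037 in Trps1+/+ organoids (log2 fold change 1.25 ± 0.08 SE, limma adjusted p = 1.04e-07), and 3110.3 and 2849 at day 28, against 1347 and 1243 in Trps1+/+ organoids (log2 fold change 1.20 ± 0.08 SE, limma adjusted p = 6.36e-08). Insig1 had 2951 and 2839 in Cdh1-heterozygous organoids at day 14, against 1572 and 1580.3 in Trps1+/+ organoids (log2 fold change 0.88 ± 0.08 SE, limma adjusted p = 1.91e-06), and 3801 and 3845 at day 28, against 1726 and 1844 in Trps1+/+ organoids (log2 fold change 1.10 ± 0.08 SE, limma adjusted p = 1.20e-07). Each of these sets was free of overlap. Nsdhl rose by 1.13 at day 14 and 0.90 at day 28. Hsd17b7 rose by 0.91 and 0.67.

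Abca1 fell in these organoids too, with 3115 and 2831 in Cdh1-heterozygous organoids at day 14, against 8488 and 7558 in Trps1+/+ organoids (log2 fold change -1.43 ± 0.08 SE, limma adjusted p = 4.93e-08), and by 0.51 at day 28. Abcg1 fell by 0.95 at day 14 and 0.53 at day 28. Srebf1 was not called at day 14 (0.23) and fell at day 28, with 8730.1 and 8430.0 in Cdh1-heterozygous organoids, against 21212 and 22156 in Trps1+/+ organoids (log2 fold change -1.34 ± 0.09 SE, limma adjusted p = 1.24e-07). Soat1 fell by 0.72 at day 14 but was higher at day 28, with 1376 and 1342 in Cdh1-heterozygous organoids, against 374 and 469.9 in Trps1+/+ organoids (log2 fold change 1.69 ± 0.13 SE, limma adjusted p = 3.20e-07).

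Fibroblast markers summed to 656841 to 744380 in Cdh1-heterozygous organoids at day 14, against 92085 to 99922 in Trps1+/+ organoids, and to 358879 to 429120 in Cdh1-heterozygous organoids at day 28, against 26600.4 to 40497 in Trps1+/+ organoids. Macrophage markers summed to 6090.3 to 6579 in Cdh1-heterozygous and 2743 to 2962 in Trps1+/+ organoids at day 14, and to 1642 to 1989 in Cdh1-heterozygous and 927 to 993 in Trps1+/+ organoids at day 28. Epithelial markers summed to 94193 to 100313 in Cdh1-heterozygous organoids at day 14, against 123198 to 134182 in Trps1+/+ organoids, and to 48182 to 50556 in Cdh1-heterozygous organoids at day 28, against 120711 to 129115 in Trps1+/+ organoids. Of 10 epithelial markers at day 14, 1 was called higher (Epcam, 0.61) and 2 lower (Krt5, -2.24, and Krt19, -1.09). At day 28 skeletal muscle markers summed to 36219 to 46953 in Cdh1-heterozygous and 4460.0 to 6448 in Trps1+/+ organoids, adipocyte markers to 3057 to 3199 in Cdh1-heterozygous and 839 to 1383 in Trps1+/+ organoids, and endothelial markers to 363 to 371 in Cdh1-heterozygous and 593 to 653 in Trps1+/+ organoids. The endothelial list was split, with Tek (2.32) and Kdr (1.67) called higher and Erg (-2.28) lower. Abca1 and Abcg1 were lower where the fibroblast and macrophage sums were higher, in contrast to the double-floxed organoids, where the pumps and these sums were all lower. The part of the cell mixture was not tested. Fatty acid synthesis genes had 10 of 17 up and 5 down at day 14 and 11 up and 4 down at day 28.

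Between the Trps1F/F genotypes, most enzyme genes were lower in the double-floxed organoids at day 14 and higher at day 28, although the change between the days was not itself tested. At day 14 double-floxed organoids were lower than Cdh1-heterozygous organoids for 11 of 18 enzymes and higher for 1, Ebp (0.21, a call lost in some alternatives), with 4 members up and 14 down (all genes 19% and 21.6%). The lower calls of Idi1, Lss and Sc5d were lost in some alternatives too. At day 28 they were higher for 18 of 18 and lower for 0, with 21 members up and 5 down (all genes 27.7% and 29%). The enzyme median was -0.36 at day 14 and 0.81 at day 28. Of all genes called, 46.8% were higher as deposited and 57.7% after quantile normalisation at day 14, and 48.9% and 61.7% at day 28, where that scaling put the median of all genes at 0.15. The called members kept their direction under each scaling run.

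Cyp51 had 1148 and 1161 in double-floxed organoids at day 14, against 2562 and 2481 in Cdh1-heterozygous organoids (log2 fold change -1.13 ± 0.08 SE, limma adjusted p = 1.60e-07). At day 28 it had 3773 and 4080.4 in double-floxed organoids, against 3110.3 and 2849 in Cdh1-heterozygous organoids (log2 fold change 0.40 ± 0.08 SE, limma adjusted p = 7.13e-04). Abca1 turned the opposite way: it was higher in double-floxed organoids at day 14 (log2 fold change 0.65 ± 0.08 SE, limma adjusted p = 3.68e-05) and lower at day 28, with 2151 and 2234 in double-floxed organoids, against 5800.1 and 5879 in Cdh1-heterozygous organoids (log2 fold change -1.41 ± 0.08 SE, limma adjusted p = 1.18e-08). Insig1 was lower in double-floxed organoids at both days (-1.41 and -0.69), unlike the enzymes at day 28. At day 28 the epithelial markers summed to 166641 to 198330 in double-floxed organoids, against 48182 to 50556 in Cdh1-heterozygous organoids, and all 10 were called higher. Fibroblast markers summed to 9490.0 to 10267 in double-floxed organoids, against 358879 to 429120 in Cdh1-heterozygous organoids, skeletal muscle markers to 768 to 1172 in double-floxed organoids, against 36219 to 46953 in Cdh1-heterozygous organoids, and adipocyte markers to 317 to 369.6 in double-floxed organoids, against 3057 to 3199 in Cdh1-heterozygous organoids, and every gene of these 3 lists was called lower. At day 14 epithelial markers summed to 176682 to 181099 in double-floxed and 94193 to 100313 in Cdh1-heterozygous organoids, and fibroblast markers to 23070.1 to 23473 in double-floxed and 656841 to 744380 in Cdh1-heterozygous organoids. The part of this mixture in the enzyme values was not tested. These contrasts share their libraries with those above.

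In HC11 cells, 24 h of 300 nM TSA raised a part of the route, while 2 of its enzymes fell. Of the 30 genes that passed the filter, 22 rose and 4 fell, but TSA moved most of the transcriptome: 43.6% of 13035 genes rose and 41.6% fell. At 2-fold or more, 11 members rose and 0 fell, where 21.5% of genes rose and 16.3% fell. The median of the 18 enzymes was 0.46, against 0.02 over all genes, with 13 up and 2 down. Together the 31 genes took 0.277% to 0.281% of the reads in TSA libraries and 0.179% to 0.182% in DMSO libraries.

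Steps next to each other in the route differed in size. Mvk had 1777, 1879 and 1885 in TSA cells, against 450.1, 477 and 476 in DMSO cells (log2 fold change 1.98 ± 0.05 SE, limma adjusted p = 6.80e-12). Mvd, the decarboxylase of the pathway, had 1039.8, 1027 and 1016 in TSA cells, against 286, 332 and 325 in DMSO cells (log2 fold change 1.71 ± 0.07 SE, limma adjusted p = 2.54e-10). Pmvk, the kinase that acts between them, was at -0.03 ± 0.08 (SE, limma adjusted p = 0.755), which did not pass. In the later steps Hsd17b7 rose to 1436, 1348 and 1353 in TSA cells, against 407, 404 and 439.9 in DMSO cells (log2 fold change 1.72 ± 0.06 SE, limma adjusted p = 5.06e-11), Dhcr7 by 1.55 and Tm7sf2 by 1.39. Cyp51 fell, with 2569, 2454 and 2585 in TSA cells, against 3873, 4151 and 4274 in DMSO cells (log2 fold change -0.69 ± 0.04 SE, limma adjusted p = 2.12e-08), and the sterol isomerase gene Ebp fell by 0.59. The groups did not overlap for any gene called here by name.

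The control genes split. Insig1 had 1665, 1718 and 1609 in TSA cells, against 446, 562 and 519 in DMSO cells (log2 fold change 1.71 ± 0.07 SE, limma adjusted p = 6.89e-10). Srebf1 had 6842, 7079 and 6674 in TSA cells, against 2973, 3171 and 3226 in DMSO cells (log2 fold change 1.14 ± 0.04 SE, limma adjusted p = 1.52e-10). Srebf2 fell, with 2533, 2501 and 2748 in TSA cells, against 3512, 3792 and 4082 in DMSO cells (log2 fold change -0.55 ± 0.06 SE, limma adjusted p = 1.86e-06). In transport and storage 4 of 4 genes rose: Soat1 had 799, 855 and 846 in TSA cells, against 302, 288 and 301 in DMSO cells (log2 fold change 1.49 ± 0.06 SE, limma adjusted p = 3.67e-10), and Npc2 rose by 1.42, Npc1 by 1.01 and Stard4 by 0.38.

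Efflux genes gave no common direction. Abca1 had 460.4, 511 and 459.5 in TSA cells, against 540.1, 471 and 407 in DMSO cells, which overlapped (log2 fold change 0.02 ± 0.10 SE, limma adjusted p = 0.842). Abcg1 had at most 1 read in a library, below the 3-read floor of 2.26 to 3.36 normalised counts, and was not tested here. Nr1h2 rose by 1.01, and the low-count gene Nr1h3 fell, with 16.4, 27.9 and 23.7 in TSA cells, against 40.9, 39.2 and 43.8 in DMSO cells (log2 fold change -0.87 ± 0.22 SE, limma adjusted p = 0.00332). Of the neighbouring lists, SREBP cleavage and turnover had 2 of 11 up and 8 down (Mbtps2, -1.69, and Rnf145, -1.88, fell, and Paqr3, 2.14, rose), the isoprenoid branch 5 of 14 up and 8 down, fatty acid synthesis 7 of 16 up and 8 down (Acss2, 3.81, Acly, 1.61), and sterol uptake, exchange and oxysterols 12 of 22 up and 8 down (Lipa, 2.54). Epithelial markers summed to 41146 to 42611 in TSA cells, with Cldn7 at 0, against 108345 to 119162 in DMSO cells, and fibroblast markers to 900.2 to 994 in TSA cells, against 5479 to 5797 in DMSO cells. Both lists were split: of 8 epithelial markers tested 3 were called higher and 5 lower. Of 5 fibroblast markers tested 2 were called higher (Col1a1, 2.26) and 3 lower (Col1a2, -3.66, and Col3a1, -3.45). The part of this shift was not tested.

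**Figure D4:**
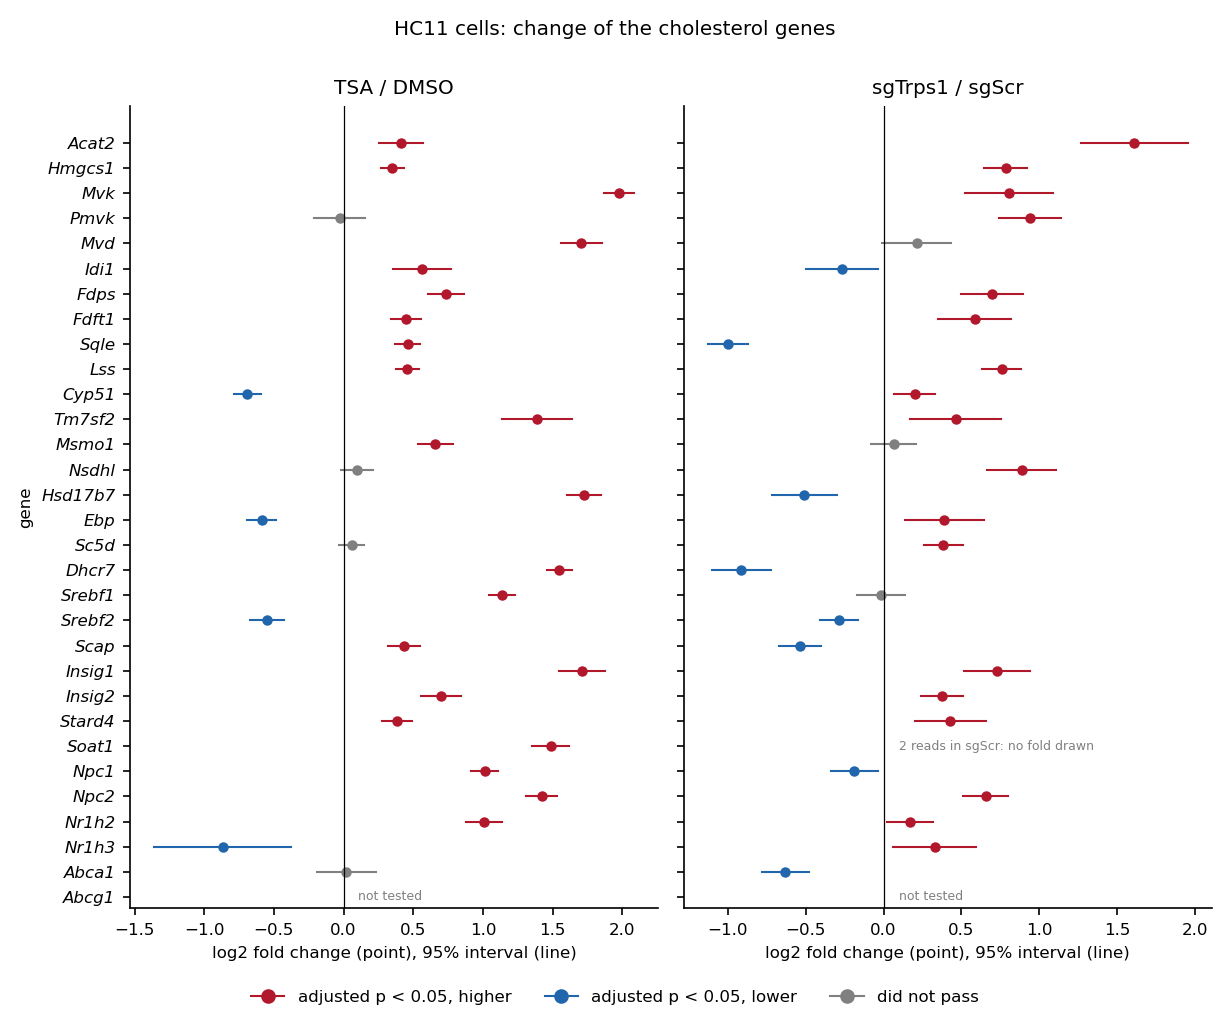
Log2 fold change (point) and 95% interval (line) of each member in HC11 cells, for TSA over DMSO (left, 3 libraries each) and sgTrps1 over sgScr (right, 2 libraries each); colours mark a limma adjusted p under 0.05. Mvk, Mvd, Hsd17b7, Insig1 and Dhcr7 lie beyond 1.5 on the left, and on the right, where Soat1 (2 reads in sgScr) has no point, Acat2 has the highest point and Sqle the lowest.

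In the libraries labelled sgTrps1, members rose and fell at neighbouring steps of the route. Of 30 genes tested against sgScr, 19 rose and 8 fell, where 34.6% of 12552 genes rose and 32.4% fell. At 2-fold or more 2 members rose and 1 fell, where 6.92% and 6.95% of all genes did. The 2 that rose were Acat2 and Soat1, and Soat1 passed the low-value filter only through the libraries labelled sgTrps1. Acat2 had 124 and 119 in libraries labelled sgTrps1, against 43.9 and 34.9 in sgScr libraries (log2 fold change 1.61 ± 0.16 SE, limma adjusted p = 9.46e-07). Pmvk had 566 and 559 in libraries labelled sgTrps1, against 321 and 266 in sgScr libraries (log2 fold change 0.94 ± 0.09 SE, limma adjusted p = 8.33e-07), and Hmgcs1 rose by 0.78. Mvd (0.21) did not pass and Idi1 fell by 0.27, a call lost in some alternatives.

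Sqle, often described as a rate-limiting step after the statin target, fell, with 1632 and 1648 in libraries labelled sgTrps1, against 3411 and 3163 in sgScr libraries (fold 0.499, limma adjusted p = 6.45e-09). Dhcr7 fell too, with 240.0 and 256 in libraries labelled sgTrps1, against 492 and 445 in sgScr libraries (log2 fold change -0.91 ± 0.09 SE, limma adjusted p = 6.63e-07), as did Hsd17b7 (-0.51). Nsdhl rose by 0.89 and Lss by 0.76. Lss lies on chromosome 10, where the median of 574 genes was 0.42 and 80.3% of them were positive, and chromosome 16 stood at 0.32 (363 genes, 72.7% positive), while the other 18 chromosomes had medians from -0.16 to 0.09. The part of this in the Lss value was not tested.

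Among the regulators Insig1 rose by 0.73 and Insig2 by 0.37, while Scap fell by 0.54 and Srebf2 by 0.29. Abca1 fell, with 2121 and 2069 in libraries labelled sgTrps1, against 3014 and 3494 in sgScr libraries (log2 fold change -0.63 ± 0.07 SE, limma adjusted p = 2.67e-06). Soat1 had 162 reads over the libraries labelled sgTrps1, against 2 over the sgScr libraries. The ratio was 55.3, with a 95% counting interval of 15.1 to 461, which covers counting error only. Soat1 is among the 19 genes that rose, and no fold is given. It passed the low-value filter only through the libraries labelled sgTrps1, where it was high. In the TSA experiment the HC11 cells given DMSO had Soat1 at 302, 288 and 301, and that table was normalised on its own. SREBP cleavage and turnover had 0 of 10 genes up and 7 down (Erlin2, -0.80), the isoprenoid branch 3 of 14 up and 5 down (Coq2, -1.04), fatty acid synthesis 4 of 15 up and 9 down (Acaca, -0.67), and sterol uptake, exchange and oxysterols 12 of 24 up and 8 down (Cyp7b1, -3.34, and Stard5, 1.37). Epithelial markers (9 measured) summed to 79661 to 79771 in libraries labelled sgTrps1, against 27788 to 30901 in sgScr libraries, where Krt18 was at 0. Of the 7 that passed the filter, 3 were called higher (Krt5, 2.68) and 3 lower (Krt7, -2.51, and Epcam, -1.40). The part of these markers was not tested.

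In tumors no member passed the test between Trps1F/F mice (6) and Trps1+/+ mice (3). Of 15085 genes 0% rose and 0% fell by limma, voom with limma also called 0, and at an unadjusted limma p under 0.05 there were 791 genes, 5.24% of all, with 3 members up (Lss, Pmvk and Sc5d) and 1 down (Dhcr7). Lss was at 0.64 ± 0.20 (SE, limma adjusted p = 0.803) and Dhcr7 at -0.95 ± 0.35 (SE, limma adjusted p = 0.803). The 95% intervals of the members had a median half-width of 0.56 on the log2 scale, from 0.29 to 0.99. These intervals are for single genes, and a call after adjustment over all genes needs more, so shifts of these sizes and above may have been missed with these mice. The median of the 18 enzymes was 0.17, against 0.00 over all genes.

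Split by the submitters' subgroups, subgroup_one had 2 members higher and 2 lower than Trps1+/+ tumors, where 8.91% and 6.7% of 15725 genes were. Srebf1 had 5134, 4784, 6327 and 4233 in the subgroup_one tumors, against 1975, 1956 and 2268 in Trps1+/+ tumors (log2 fold change 1.29 ± 0.11 SE, limma adjusted p = 7.07e-04), and its lowest subgroup_one tumor lay above every Trps1+/+ tumor. Lss had 559, 659.9, 494 and 453 in subgroup_one, against 268, 316 and 383 in Trps1+/+ tumors (log2 fold change 0.81 ± 0.22 SE, limma adjusted p = 0.0442). These did not overlap either, but the Lss call was lost with no low-value filter, with median centring, with quantile normalisation and without the variance trend.

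Soat1 was lower in subgroup_one, with 1584, 1886, 1986 and 1629, against 3521, 2671 and 4144 in Trps1+/+ tumors (log2 fold change -0.95 ± 0.20 SE, limma adjusted p = 0.0158), and so was Abca1, with 4258, 4419, 3877 and 4669, against 7802, 6954 and 9468 in Trps1+/+ tumors (log2 fold change -0.89 ± 0.22 SE, limma adjusted p = 0.0292). With any 1 mouse of these groups left out, 1 or 2 members were called in place of 4, and Srebf1 was the 1 gene called in every alternative run. Acat2 (0.89 ± 0.28) and Dhcr7 (-1.22 ± 0.39) were as far from 0 but varied more and did not pass. Macrophage markers summed to 23654 to 36092 in subgroup_one, against 61353 to 86966 in Trps1+/+ tumors, and endothelial markers to 3301 to 8668 in subgroup_one, against 12413 to 16139 in Trps1+/+ tumors, without overlap. Fibroblast markers summed to 80966 to 627190 in subgroup_one, against 394146 to 1114320 in Trps1+/+ tumors, adipocyte markers to 1047 to 2969.8 in subgroup_one, against 321 to 1288 in Trps1+/+ tumors, and epithelial markers to 75003 to 143603 in subgroup_one, against 9939.6 to 38550.0 in Trps1+/+ tumors. Cdh1, floxed in all these mice, was at 6909, 9686, 13639 and 8551 in subgroup_one, against 1599, 326 and 129 in Trps1+/+ tumors. The part of the cell mixture was not tested, and a subgroup drawn from the same tumors is no independent evidence.

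Tumors of subgroup_two had 0 members and 0% of genes higher and 0% lower by limma, 0 by voom, and 4 members up and 1 down at an unadjusted p under 0.05 (13.3% of genes). Soat1 stood at 5378 and 4903 in subgroup_two, above each of the 3521, 2671 and 4144 of Trps1+/+ tumors, and its log2 fold change of 0.60 ± 0.22 did not pass. Median centring moved the median of all genes to 0.12 there. Tumors of subgroup_three had 0 members called, with 0.00636% of genes higher and 0% lower by limma, 0 by voom, and 0 members up and 3 down at an unadjusted p under 0.05 (6.05% of genes). Srebf1 had 1162 and 1185 in subgroup_three, below each of the 1975, 1956 and 2268 of Trps1+/+ tumors, at -0.81 ± 0.13 (SE, limma adjusted p = 0.276). Values of the subgroups thus lay on both sides of the Trps1+/+ tumors for Srebf1 and for Soat1, and the differences between subgroups were not tested.

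**Figure D5:**
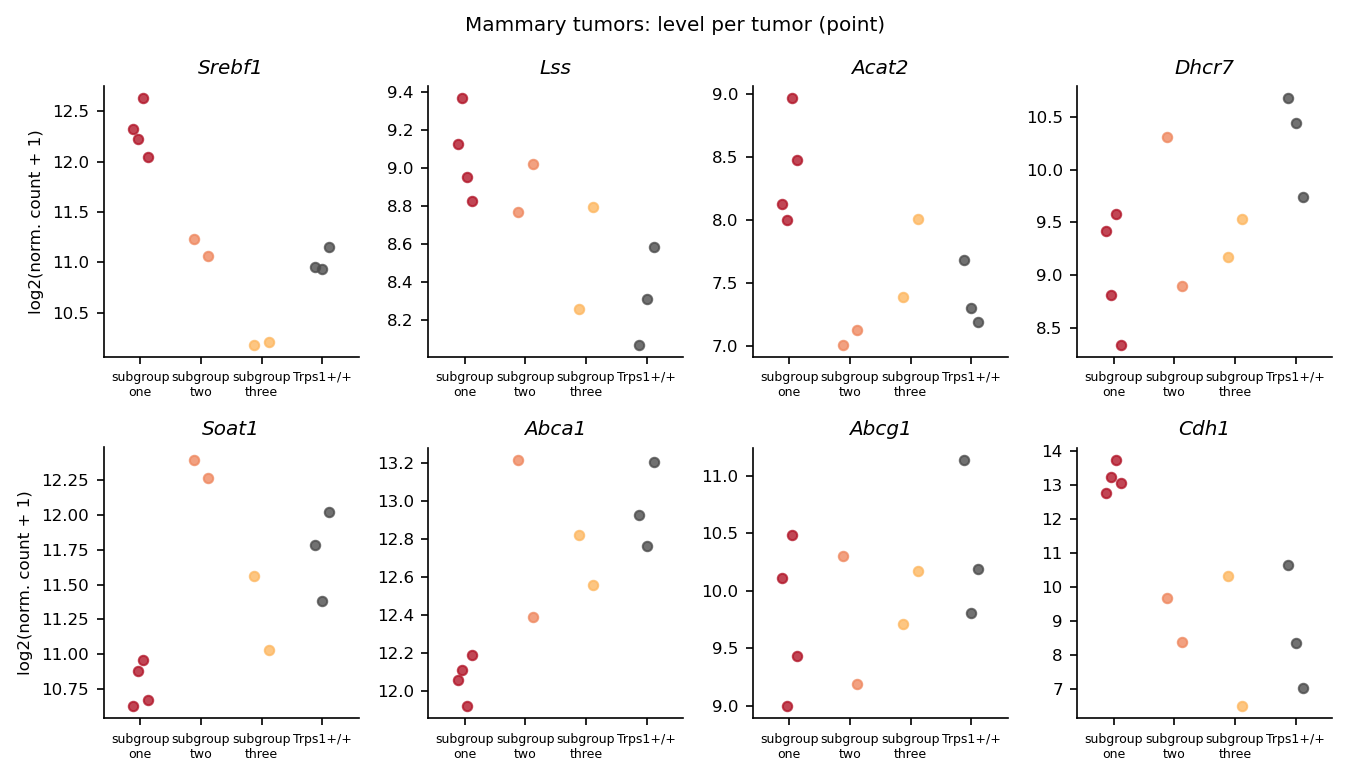
Level of 7 members and Cdh1 in each tumor (points, log2 of normalised count + 1), by subgroup of the Trps1F/F tumors and in Trps1+/+ tumors. Tumors of subgroup_one lie above the Trps1+/+ tumors for Srebf1 and Lss and below them for Soat1 and Abca1.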

How the data were processed

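The deposited tables hold log2(normalized count + 1) per gene. TopHat, HTSeq and the build GRCm38 are named in the submitters' processing notes, without versions or a strand setting. Every deposited log2 value gave a whole number of reads after division by 1 factor per library (100% within 0.01), from which depth and the 3-read floor were taken. Rows with date-like symbols (12 or 13 per table) and 1 blank row in each of 2 tables (at most 1.31e-05% of reads) were left out.

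Each table was fitted separately with limma 3.58.1 (R 4.3.3) with a variance trend on genes with normalized count + 1 of at least 10 in as many libraries as the smallest group has. P-values were two-sided and adjusted by Benjamini-Hochberg over all genes kept, in 16 comparisons. The 12 organoid libraries shared 1 fit, and tumors of a mouse were averaged (within a subgroup for subgroups). The script was tested on simulated data. In simulated tumors it recovered 12 of 100 genes with a true log2 change of 1 up or down, and 75 of 100 with 2. In the simulated guide, TSA and organoid experiments it recovered 103 of 103, 98 of 98 and 94 of 99 at a change of 1. False calls there were 31, 11 and 16, and 2 in simulated tumors.

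Same-numbered replicates did not deviate together (correlations -0.0838, -0.00282 and -0.0632 in the TSA experiment, -0.193 in the guide experiment and -0.0315 between the numbered double-floxed organoids of both days), so no replicate block was used. Members of each role with the largest called changes, and members against their role group, are given with full values. Members, lists and tests were chosen with earlier results of these data known. Alternatives covered scaling, pseudocount, filter, voom, the variance trend and leaving out each replicate. Promoter windows are RefSeq (GRCm38.p6), and exon overlaps come from the GRCm38 annotation.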

Additional observations from a re-analysis of the deposited data

Results flagged for a closer look

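Of 62 sets of 4 or 6 values searched for a value standing apart, 3 held one, where chance flags about 1 in 20. Insig1 was at 9.81 (log2 of normalised count + 1) in mouse 18LCO027 and 8.14 to 8.43 in the other Trps1F/F mice with tumors, and Msmo1 was at 10.14 in the same mouse and 9.30 to 9.51 in the others. Hmgcs1 was at 11.12 in tumor 1 of mouse 18LCO025 and 10.23 to 10.34 in the other subgroup_one tumors.

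The change from day 14 to day 28 differed between Cdh1F/F;Trps1F/F and Cdh1F/F;Trps1+/+ organoids, by the limma interaction test, for 21 members (log2 scale, Trps1F/F change minus Trps1+/+ change). In the mevalonate pathway these were Idi1 (1.63), Hmgcs1 (1.23), Acat2 (0.90) and Fdps (0.89). In the later steps they were Cyp51 (1.48), Msmo1 (1.15), Sc5d (1.08), Hsd17b7 (1.04), Fdft1 (1.01), Nsdhl (0.99), Sqle (0.85), Lss (0.76) and Ebp (0.46). In the other roles they were Soat1 (1.20), Stard4 (1.06), Insig1 (0.93), Npc1 (0.69), Nr1h2 (-0.67), Abca1 (-1.14), Srebf1 (-1.22) and Abcg1 (-1.60). Each interaction rests on 2 libraries a group.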

How the results depend on the processing

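No called result reversed in any alternative run. Over the 16 counts of called members, 203 of 214 alternative values stayed within 1.5 times the count in the report, and the other 11 came from leaving out a replicate. The 203 include values from tumor comparisons with no member called, which had no call to lose. These were all Trps1F/F tumors, subgroup_two and subgroup_three, each against Trps1+/+ tumors. Leaving out each replicate in turn gave 9 to 16 members (17 in full) for Cdh1F/F;Trps1F/F against Cdh1F/F;Trps1+/+ organoids at day 14, 8 to 16 (17) over time in Cdh1+/F;Trps1F/F, 8 to 11 (13) over time in Cdh1F/F;Trps1+/+, and 1 to 2 (4) for subgroup_one. Of 3441 values for single genes, 3211 stayed on their side of the threshold and 230 lost the call. With a replicate block the TSA experiment gave 26 members, the guide experiment 27 and day 28 against day 14 in Cdh1F/F;Trps1F/F organoids 26, each as without it, and crossing the numbers in the guide experiment, chosen after seeing the data, gave 27. No paired analysis was possible in the other organoid comparisons because the 8 columns of the other 4 groups carry no usable replicate number, or in tumors because no number is shared. The tumor comparisons, with 2 or 3 mice in the smaller group, had the widest 95% intervals by their median over the members.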
